A study of Mus musculus with 52 samples.

Results

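A set of 64 genes had lower RNA levels in the suprachiasmatic nucleus (SCN) of mice labelled Npas4-/- than in wild-type littermates, both in darkness and after light. The members were chosen by their RPKM values, which are reads per kilobase of gene scaled to the size of the library. Every dark library labelled null had to lie below every dark wild-type library, and the same was required of the light libraries. Both ratios of the group means had to be 0.8 or less, and the mean of the 6 wild-type libraries had to be 0.3 RPKM or more. Of 21999 genes in the table, 14001 reached that level and 70 of these met the rule, a share of 0.5%. The target gene itself did not meet it, and 6 genes that did are left out by name: Cck, Robo3, Drd5, Slc6a3, Abcc8 and Kcnj4. The levels of the members in the 2 genotypes are therefore a description, and no test of that difference is given.

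NPAS4 is a transcription factor of the bHLH-PAS family, made in neurons when electrical activity lets calcium in. It pairs with the related protein ARNT2 or ARNT, and bHLH-PAS pairs of this kind read short DNA elements. In other neurons NPAS4 is known for adjusting inhibitory synapses and for activating Bdnf. The SCN holds the circadian pacemaker of mammals, and light reaches it from the retina through glutamate-releasing axons.

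The Npas4 experiment holds 4 groups of 3 libraries, all from male mice aged 11 to 12 weeks: wild-type littermates and Npas4-/- mice, each in darkness or with a light pulse of 1 h at circadian time (CT) 17. Circadian time is the phase of a mouse's free-running day, in hours. The light-pulse experiment holds 16 libraries of wild-type males of that age, with dark controls at CT17 (4 libraries) and CT23 (2 libraries) and light of 0.5 h (4 libraries), 1 h, 3 h and 6 h (2 libraries each). Each library pools 6 pairs of SCN, and the labels name neither separate days nor litters, so the p-values measure the spread between pools, which may be partly technical. The labels do not say which part of Npas4 the null allele lacks, and the 2 experiments share no library. In whole tissue, fewer cells of a type and less RNA per cell cannot be told apart.

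Npas4 RNA does not separate the labels in darkness. The wild-type dark libraries 1 to 3 held 2.70, 2.44 and 2.62 RPKM, and those labelled null held 1.66, 3.02 and 3.22 RPKM. After light the wild-type libraries held 4.15, 3.22 and 4.30 RPKM and the libraries labelled null 1.40, 2.24 and 1.58 RPKM. The dark groups overlapped, with null-labelled libraries 2 and 3 above all wild-type ones, and the light groups did not. Reads counted over a whole gene cannot show whether a deleted part is missing, so every direction below is between libraries as labelled.

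The Npas4 libraries held between 26638939 and 32097975 counted reads, and the light-pulse libraries between 12477382 and 15369985, except for the 4 whose titles end in s, which held 27413860 to 30149286. Markers of SCN neurons were present: the summed level of the 10 markers was 1583 to 2239 CPM (counts scaled to the library total) in wild-type dark libraries and 2135 to 3326 CPM in null-labelled ones. In light it was 1731 to 2305 CPM and 2507 to 2899 CPM. The higher sums in null-labelled libraries move opposite to the members, and 3 of the 10 markers (Rgs16, Nms and Prok2) were called higher in both conditions; the part of this shift in the members' levels was not tested. No marker of the 10 other cell type lists was called between genotypes in either condition. All 8 meningeal fibroblast markers were nonetheless higher in null-labelled dark libraries in fitted value, by a median log2 of 0.91 and up to 2.77. Their summed level was 272, 106 and 61.0 CPM in null-labelled dark libraries 1 to 3, against 68.4 to 85.8 CPM in wild-type dark ones, so library 1 stood apart. Without that library the rule gave 73 genes, 60 of the 64 among them. In light the sums were 60.8 to 71.5 CPM in null-labelled libraries and 66.2 to 79.3 CPM in wild-type ones. Moving with the members, all 7 thalamic and cortical markers tested were lower in null-labelled light libraries (median log2 -0.23, and -0.09 in darkness). Markers of neighbouring hypothalamic neurons had medians of -0.27 in light and 0.08 in darkness. Those of ependymal and choroid plexus cells had -0.13 in light and -0.20 in darkness, and astrocyte markers -0.10 and -0.07. Opposite to the members, all 10 oligodendrocyte markers (median 0.25) and all 6 endothelial ones (0.14) were higher in null-labelled dark libraries. In light their medians were 0.03 and 0.01. Oligodendrocyte precursor and microglia markers had medians of 0.07 and 0.03 in darkness and -0.07 and -0.02 in light. All 3 optic nerve and retina markers tested were lower in both conditions. That list's light sums were 12.8 to 14.81 CPM against 15.96 to 16.91 CPM, and its dark sums overlapped. The part of all these markers in the members' levels was not tested.

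Promoters are shown because they belong to members on which later results turn. Stac is the member that is a named NPAS4 target in other neurons. Fezf2, Lpar6 and Map3k14 were called higher in light in the Npas4 experiment, and Fezf2 was not called in the light-pulse experiment. Each promoter is the run of 250 bases just before the RefSeq start on the gene's own strand, build GRCm38.p6 (mm10). For Stac and Fezf2 the annotated gene reaches beyond the start used, so part or all of the stretch lies inside the gene's annotated span. Capitals mark TCGTG or its reverse CACGA, a core that bHLH-PAS pairs can read.
Stac, chr9:111690349-111690598, minus strand: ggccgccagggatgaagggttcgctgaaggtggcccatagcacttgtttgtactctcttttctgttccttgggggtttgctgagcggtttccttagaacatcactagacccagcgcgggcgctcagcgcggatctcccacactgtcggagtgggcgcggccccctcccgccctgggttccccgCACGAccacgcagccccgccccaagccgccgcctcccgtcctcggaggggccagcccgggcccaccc
Fezf2, chr14:12345866-12346115, minus strand: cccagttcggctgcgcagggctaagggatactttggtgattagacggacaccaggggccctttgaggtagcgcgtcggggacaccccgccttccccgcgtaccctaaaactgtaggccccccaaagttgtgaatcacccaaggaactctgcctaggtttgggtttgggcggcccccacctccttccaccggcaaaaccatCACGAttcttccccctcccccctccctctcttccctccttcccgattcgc
Lpar6, chr14:73237641-73237890, plus strand: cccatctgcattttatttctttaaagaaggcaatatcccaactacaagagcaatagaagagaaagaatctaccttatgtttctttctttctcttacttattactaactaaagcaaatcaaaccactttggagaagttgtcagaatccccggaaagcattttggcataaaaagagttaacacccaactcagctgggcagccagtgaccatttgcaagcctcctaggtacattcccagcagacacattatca
Map3k14, chr11:103267402-103267651, minus strand: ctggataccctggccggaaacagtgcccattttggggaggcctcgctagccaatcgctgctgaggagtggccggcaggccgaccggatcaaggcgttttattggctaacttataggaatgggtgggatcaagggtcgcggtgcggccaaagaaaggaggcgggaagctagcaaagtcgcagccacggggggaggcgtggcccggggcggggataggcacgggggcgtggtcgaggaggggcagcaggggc
Stac and Fezf2 each hold 1 marked core in this stretch, Stac has a second at position 23 after its start, and Lpar6 and Map3k14 hold none.

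The same letters were searched on both strands over all members with a RefSeq promoter entry, 48 of 64, in windows of 300 bases that run from 250 before to 50 after a start. The TCGTG core lay in at least 1 window of 12 of the 48, or 25.0%, against 23.9% of the 10701 genes at the RPKM floor with an entry. The members share this core about as often as other genes do. Those 12 are Stac, Fezf2, Spx, Trpc6, Klhdc8a, BC034090, Ankrd6, Nat8f6, Gas2, D930020B18Rik, Cdc14a and Satb1. The E-box CACGTG, which clock proteins can bind and which neither contains nor lies within the TCGTG core, lay in none of the 48, against 11.3% of the 10701. The cAMP response element TGACGTCA lay in 1 of the 48 against 3.52%, and the D-box TTATGTAA in none against 0.71%. A match is only a run of letters, and its absence covers only this window.

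Levels of the 64 members ran from 0.369 to 382 RPKM in wild-type libraries, with a median of 3.46 RPKM against 7.76 RPKM for all genes at the floor. Under 1 RPKM lay 12 members, from 1 to 10 RPKM 35, and over 10 RPKM 17. Every member was backed by at least 10 reads in each library of the Npas4 experiment. There 12 had fewer than 50 reads in some library, where counting error is large. Most light-pulse libraries were shallower, and A1cf had fewer reads in some of them. All 64 passed the filter on low counts used for the tests below.

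The ratio of null-labelled to wild-type means ran from 0.183 to 0.795 in darkness (median 0.682) and from 0.242 to 0.797 in light (median 0.673). The ratios in the 2 conditions lay within 0.05 of each other for 35 members, and 24 had the lower ratio in light. Only 6 members stood at 0.5 or less in both conditions, and 23 stood above 0.7 in both. As background to the rule, 6.72% of the 14001 genes had every null-labelled dark library below every wild-type dark one, and 7.36% had this in light.

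**Figure D1:**
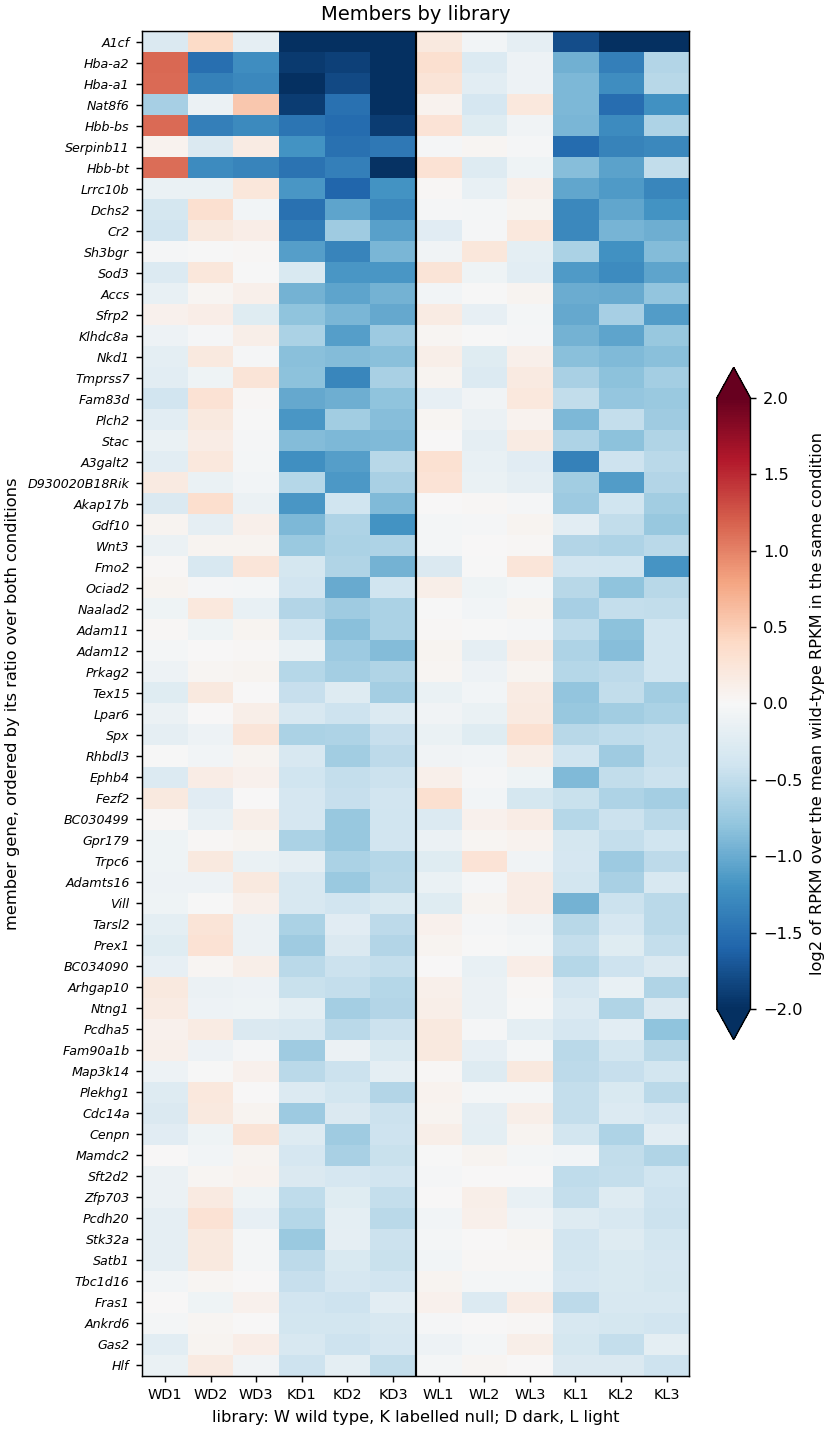
Each row is 1 of the 64 members and each column 1 of the 12 Npas4 libraries; colour gives the log2 of RPKM over the mean wild-type RPKM in the same lighting condition, from blue (lower) to red (higher), with arrows on the scale for values past ±2. Blue fills both blocks of null-labelled libraries because the rule requires it, and the 4 globin genes are red in wild-type dark library 1 alone.

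**Figure D2:**
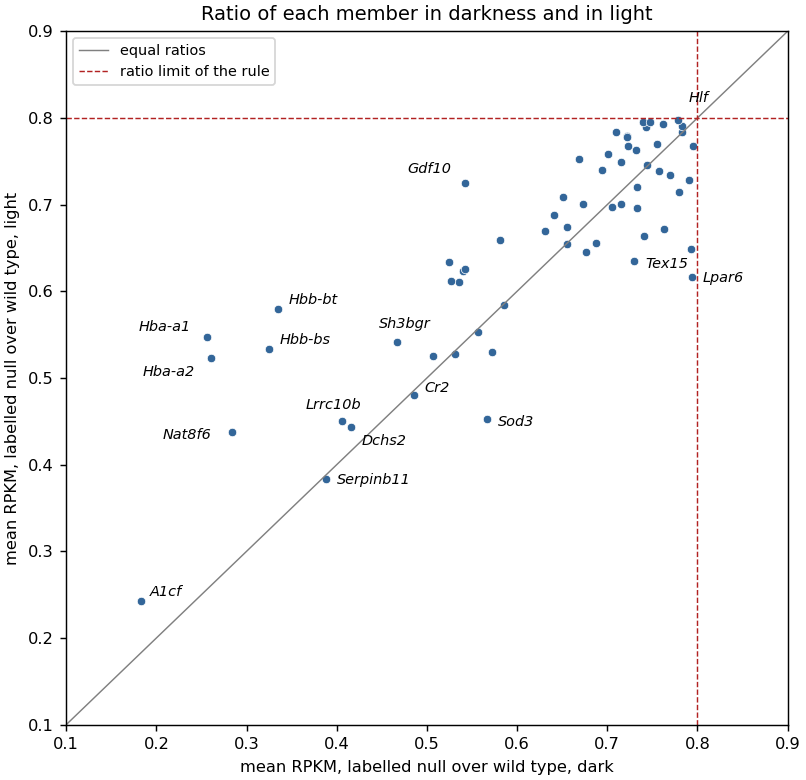
Each point is 1 member; the axes give the mean RPKM of null-labelled over wild-type libraries in darkness (horizontal) and in light (vertical), the grey line marks equal ratios and the dashed red lines the limit of 0.8. Points crowd below the limit near the diagonal, A1cf lies lowest at 0.183 and 0.242, and the 4 globin genes lie above the diagonal.

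A1cf, an RNA-binding partner of the cytidine deaminase APOBEC1, had the lowest ratio. Its wild-type dark libraries held 0.637, 1.01 and 0.684 RPKM and the null-labelled ones 0.0972, 0.166 and 0.164 RPKM. In light the wild-type libraries held 0.779, 0.657 and 0.600 RPKM and the null-labelled ones 0.198, 0.171 and 0.125 RPKM. The null-labelled mean was 81.7% lower in darkness and 75.8% lower in light, on 10 to 121 reads per library.

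Lrrc10b, which encodes a leucine-rich repeat protein, was the lowest-ratio member of moderate level. It held 9.11, 9.13 and 11.8 RPKM in wild-type dark libraries against 4.48, 3.32 and 4.36 RPKM in null-labelled ones. In light it held 8.13, 7.24 and 8.62 RPKM against 3.89, 3.66 and 3.25 RPKM. The highest null-labelled library thus stood well under the lowest wild-type one, and the means were 59.5% and 55.0% lower.

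A1cf and Lrrc10b lie on chromosome 19, as does Npas4 (chr19:4984353-5003439), and so does Mamdc2, which encodes a MAM-domain protein and had ratios of 0.722 and 0.778. Lrrc10b (chr19:10455371-10457447) lies 5452 kb from Npas4, Mamdc2 (chr19:23302609-23448497) 18300 kb and A1cf (chr19:31868756-31952365) 26870 kb. Of 86 genes at the floor within 1000 kb of Npas4 none is a member, and their median ratios were 1.01 in darkness and 1.01 in light. Chromosome 19 holds 4.76% of the mapped members and 3.45% of the genes at the floor. Chromosome 11 holds the most, 9 members, or 14.3% against 8.08%. Whether alleles linked to the targeted locus differ between the genotypes was not tested.

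Some members are neighbours. Dchs2 and Sfrp2 lie 402.7 kb apart on chromosome 3 with no other gene at the floor between them. Dchs2, a large cadherin of the Dachsous family used in planar cell polarity, held 6.45, 10.3 and 7.89 RPKM in wild-type dark libraries and 2.91, 3.96 and 3.37 RPKM in null-labelled ones. In light it held 8.20, 8.10 and 8.66 RPKM against 3.39, 4.05 and 3.64 RPKM, and the ratios were 0.415 and 0.444. On chromosome 11, Map3k14 lies 439.5 kb from Adam11 with 15 genes between them and 506.8 kb from Wnt3 with 4 between. None of these intervening genes had both ratios at 0.8 or less.

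In the Wnt pathway, secreted ligands act through Frizzled receptors on β-catenin or on cell polarity. The members known from it were grouped after the values were seen, are lower because the rule requires it, and no list of the pathway was tested. The ligand Wnt3 held 2.73, 3.08 and 3.06 RPKM in wild-type dark libraries against 1.77, 1.90 and 1.93 RPKM, and ratios of 0.631 and 0.670. Sfrp2, a secreted protein that binds Wnt ligands, held 5.46, 5.63 and 4.38 RPKM against 2.96, 2.73 and 2.53 RPKM, with ratios of 0.531 and 0.528. Inside the cell, the Dishevelled-binding inhibitor Nkd1 had ratios of 0.557 and 0.553, and Ankrd6 (diversin) had 0.783 and 0.784. Gdf10, a ligand of the TGF-β family, had ratios of 0.543 and 0.725, one of the wider gaps between darkness and light.

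The set includes 4 adult globin genes of red blood cells, and here a single library sets the dark value. Hbb-bs held 1213 RPKM in wild-type dark library 1 but 214 and 230 RPKM in libraries 2 and 3, against 200, 190 and 148 RPKM in null-labelled ones. Hba-a1 held 293 RPKM in that library against 52.6 and 54.8 RPKM in the other 2. Without wild-type dark library 1 the dark ratios became 0.808 for Hbb-bs, 0.813 for Hbb-bt, 0.636 for Hba-a1 and 0.673 for Hba-a2. In light, where no library stood apart, the ratios were 0.533, 0.580, 0.548 and 0.524. Hba-a1 and Hba-a2, and Hbb-bs and Hbb-bt, are near-identical pairs whose reads the counting could have split either way. In the light-pulse libraries Hbb-bs ranged from 49.4 to 430 RPKM, a wider spread than either genotype's light libraries showed.

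That library also had the summed level of optic nerve and retina markers at the top of its group, 150 CPM against a lowest value of 15.1 CPM. It held the lowest wild-type dark value for 42 of the 64 members, so for most of them the wild-type mean does not rest on it. Applied without it, the rule gave 77 members: Hbb-bs, Hbb-bt, Fezf2 and Fam90a1b dropped out and 17 genes came in. Wild-type dark library 2 and null-labelled dark library 2 were both the highest of their group for 15 members, or 23.4%, near the 20.6% seen over all genes at the floor.

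Low ratios were also found for Nat8f6, Serpinb11, Cr2, Sh3bgr and Sod3. Nat8f6, from a cluster of near-identical acetyltransferase-like genes, had ratios of 0.284 and 0.438 on as few as 13 reads. Serpinb11, a clade B serpin, held 0.618, 0.483 and 0.662 RPKM in wild-type dark libraries and 0.255, 0.209 and 0.219 RPKM in null-labelled ones, with ratios of 0.388 and 0.384. Cr2, a complement receptor best known from B cells, had 0.486 and 0.480 at a wild-type mean of 0.408 RPKM. Sh3bgr had 0.466 and 0.541, and Sod3, the secreted superoxide dismutase, had 0.567 and 0.453.

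Apart from the globins, the most highly expressed members were Akap17b, Ankrd6, Stk32a, Plch2, Prkag2, Prex1, Hlf and Ociad2. Plch2, a phospholipase C of the eta class, held 25.8, 34.2 and 29.7 RPKM in wild-type dark libraries against 13.4, 18.6 and 16.6 RPKM. In light it held 27.6, 24.6 and 28.0 RPKM against 14.4, 19.3 and 16.4 RPKM, and the groups did not overlap. Akap17b had ratios of 0.581 and 0.659 at a wild-type mean of 31.1 RPKM. Prkag2, a regulatory subunit of the energy sensor AMPK, held 25.0, 27.5 and 27.8 RPKM against 17.98, 16.7 and 17.6 RPKM and had 0.650 and 0.708. Prex1, an exchange factor for the GTPase Rac, had 0.7004 and 0.759, and the kinase Stk32a had 0.740 and 0.795. Ankrd6 varied least, with 30.2, 31.8 and 31.3 RPKM against 24.1, 24.2 and 24.8 RPKM in darkness. Ociad2 completes the upper 12 with 0.676 and 0.645 at 18.2 RPKM.

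Transcription factors in the set are Hlf, Fezf2, Satb1 and Zfp703. Hlf, a PAR bZIP factor driven by the circadian clock, held 22.3, 27.8 and 23.2 RPKM in wild-type dark libraries and 18.2, 21.4 and 17.4 RPKM in null-labelled ones. It is the member nearest the limit, with ratios of 0.778 and 0.797, followed by Satb1 (0.748 and 0.796), the extracellular matrix protein gene Fras1 (0.795 and 0.768) and Stk32a. Just outside lay Slc13a1 (0.692 and 0.8004), Ppef2 (0.744 and 0.801), Cmya5 (0.802 and 0.720) and Spag5 (0.802 and 0.741), so the border between members and other genes is not a gap. Of the 24 core clock genes tested, Hlf among them, 1 was called higher (Per2) and 1 lower (Per3) in null-labelled dark libraries, and 1 higher in light (Bhlhe41).

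Stac, an adaptor protein of L-type calcium channels, is the one member on a list of 26 genes named as NPAS4 targets in other neurons. It held 3.29, 3.98 and 3.54 RPKM in wild-type dark libraries and 1.97, 1.94 and 1.95 RPKM in null-labelled ones. In light it held 3.04, 2.67 and 3.37 RPKM against 1.98, 1.72 and 1.99 RPKM, and the ratios were 0.542 and 0.626. All other genes of the list lie outside the set. By edgeR's quasi-likelihood test 2 of the 26 were called higher in null-labelled dark libraries: Bdnf, a neurotrophin, at a log2 fold change of 1.01 ± 0.08 (SE, adjusted p = 9.5e-05), and Nr4a1, an orphan nuclear receptor, at 1.27 ± 0.16 (adjusted p = 0.0023). In light Bdnf was again called higher, at 0.98 ± 0.08 (edgeR, adjusted p = 0.00016). Nr4a1 is also on a list of 22 immediate-early genes, which respond first to a stimulus. Of these, 4 were called higher in null-labelled dark libraries (Nr4a1, Fos, Fosl2 and Dusp1) and 0 were called in light. The median log2 fold change of that list was 0.75 in darkness and -0.33 in light, and its part in the members' levels was not tested. Of the genes of the bHLH-PAS partner list, 0 of 11 tested were called in darkness or in light. Over all 15001 genes tested, 0.753% were called in darkness (0.433% higher, 0.32% lower) and 0.467% in light (0.273% higher, 0.193% lower).

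The remaining members had ratios between 0.507 and 0.793 in darkness. Enzymes, members of protease families and a vesicle transport protein among them are Accs, Naalad2, Fmo2, Tarsl2, Rhbdl3, Tmprss7, Adam11, Adam12, Adamts16, Cdc14a and Sft2d2. Receptors, channels and adhesion or matrix proteins are Ephb4, Gpr179, Trpc6, Ntng1, Pcdh20 and Pcdha5 (one of a cluster that shares exons, so its reads are uncertain). Spx encodes the peptide spexin and held 3.11, 3.28 and 4.20 RPKM in wild-type dark libraries against 2.27, 2.30 and 2.55 RPKM. Regulators of small GTPases and of the cytoskeleton are Arhgap10, Plekhg1, Tbc1d16, Vill and Gas2. Klhdc8a, Fam83d, Tex15, Cenpn, BC034090, BC030499 and D930020B18Rik complete the list. Accs had the lowest ratio of these, 0.507 and 0.525.

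The rule did not compare light with darkness, but it used these same libraries. It favours genes with little spread within groups, so a higher share than that of all genes may follow from the choice. No conclusion is drawn from such an excess. Averaged over both genotypes, 1 h of light raised 5 of the 64 members and lowered 0 (edgeR's quasi-likelihood test, adjusted p under 0.05), a share of 7.81% against 3.87% of the 15001 genes tested (3.05% higher, 0.813% lower). The members that rose are Lpar6, Map3k14, Fezf2, A3galt2 and Zfp703. The median log2 fold change of the members was -0.04, and -0.01 over all genes. With an unadjusted p under 0.05 there were 13 members, a share not counted over all genes. DESeq2 called 6, or 9.38% against 3.94% of all genes. Members other than the 5 did not pass edgeR's test. The 8 meningeal fibroblast markers had a median log2 fold change of -0.69 in this comparison, with 0 called, and their part in it was not tested.

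Lpar6, a receptor for lysophosphatidic acid, rose most clearly. Wild-type libraries held 2.62, 2.85 and 3.07 RPKM in darkness and 4.76, 4.56 and 5.67 RPKM in light. Libraries labelled null held 2.28, 2.14 and 2.37 RPKM in darkness and 2.94, 3.08 and 3.22 RPKM in light. In each genotype every light library stood above every dark one. The averaged log2 fold change was 0.65 ± 0.06 (SE, edgeR, adjusted p = 2.4e-05).

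Map3k14, the kinase NIK of the non-canonical NF-κB pathway, held 1.87, 2.00 and 2.13 RPKM in wild-type dark libraries and 3.11, 2.56 and 3.50 RPKM in wild-type light ones. The null-labelled libraries held 1.38, 1.49 and 1.75 RPKM in darkness and 2.12, 2.23 and 2.38 RPKM in light. Dark and light did not overlap in either genotype, and the averaged log2 fold change was 0.60 ± 0.08 (edgeR, adjusted p = 0.00063).

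Fezf2, a zinc-finger factor known from forebrain development, rose by 0.57 ± 0.12 on the log2 scale (edgeR, adjusted p = 0.016). It held 1.68, 1.25 and 1.47 RPKM in wild-type dark and 2.85, 2.18 and 1.79 RPKM in wild-type light libraries. With the null label it held 1.16, 1.07 and 1.12 RPKM in darkness and 1.67, 1.49 and 1.42 RPKM in light. A3galt2, a galactosyltransferase, rose by 0.97 ± 0.20 (edgeR, adjusted p = 0.015) at levels of 0.135 to 0.7001 RPKM and 13 to 75 reads. Zfp703, a transcriptional corepressor, rose by 0.37 ± 0.09 (edgeR, adjusted p = 0.034), and leaving out any 1 of 8 of the 12 libraries ended that call, with adjusted p up to 0.093. These are null-labelled dark 1 and 3, null-labelled light 2 and 3, wild-type dark 1 and 3 and wild-type light 1 and 2. Whether the light response differs between genotypes is the difference of the contrasts that chose the members, so it was not tested.

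**Figure D3:**
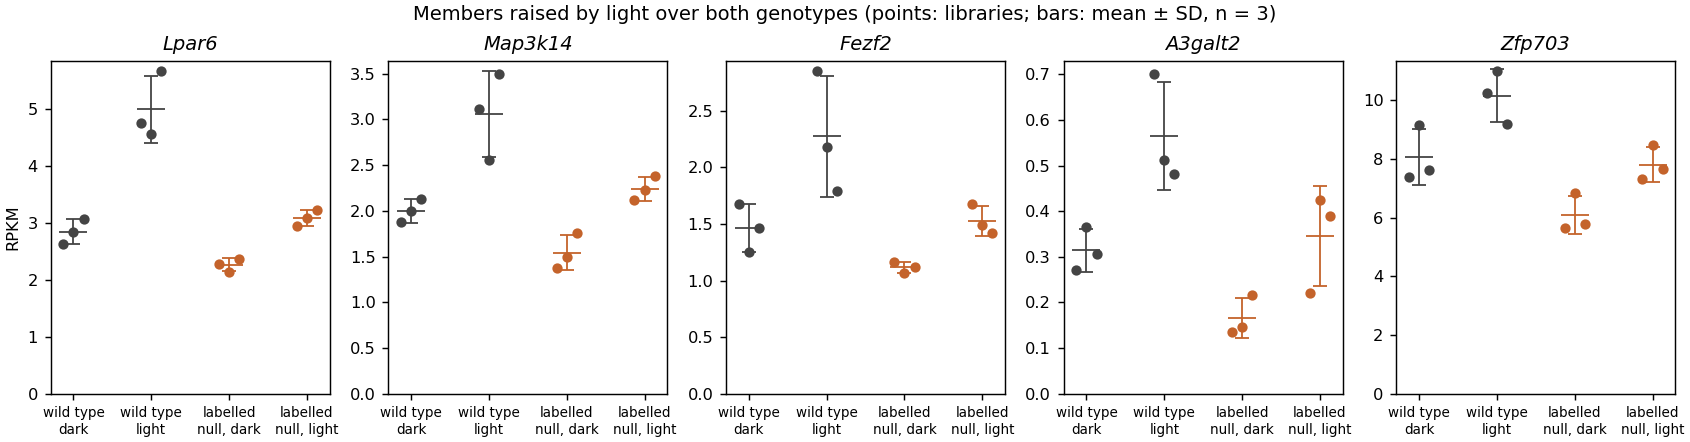
Points are libraries and bars the mean ± SD (n = 3) of RPKM on axes that start at 0, for the 5 members called higher in light over both genotypes, with wild-type groups in grey and null-labelled groups in orange. For each of the 5, the light libraries lie above the dark libraries of the same genotype.

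The light-pulse experiment gave a second view of the members in libraries the rule did not touch. Its 1 h, 3 h and 6 h libraries are all labelled batch 2 without the s suffix, whereas the CT17 dark libraries are batch 1 without the suffix or batch 2 with it. The main model held the suffix as a term, and the labels do not say what it marks. After 0.5 h, 4 members had an unadjusted p under 0.05, a share not counted over all genes. DESeq2 called 1, or 1.56% against 0.436% of all genes. By the main model 0 members were called at 0.5 h, against 0.468% of the 14524 genes tested. After 1 h 2 were called higher, or 3.12%, against 1.27% of all genes called and 1.11% called higher. After 3 h 7 were called, or 10.9% against 3.24%, with 3 higher (2.2% of all genes) and 4 lower (1.05% of all genes). The dark controls lie at CT17 and CT23 only, so in the 3 h calls light and time of day cannot be told apart. After 6 h against dark CT23 another 7 were called, or 10.9% against 1.41%, again 3 higher (0.998% of all genes) and 4 lower (0.413% of all genes).

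Fitted values of markers of other cell types also differed in these comparisons. After 3 h, 1 marker each of oligodendrocyte precursors, astrocytes and microglia was called lower, and 1 of neighbouring hypothalamic neurons higher. After 6 h, 2 markers of neighbouring hypothalamic neurons (list median log2 0.40) and 1 of astrocytes were called higher. No oligodendrocyte or meningeal fibroblast marker was called in any of the comparisons. After 1 h all 10 oligodendrocyte markers lay lower in fitted value, by log2 -0.59 to -0.36 with a median of -0.52, and the median was -0.22 after 3 h and -0.21 after 6 h. The meningeal fibroblast markers had a median of 1.54 after 0.5 h, -0.94 after 1 h, -0.65 after 3 h, 0.15 after 6 h and -0.64 for CT23 against CT17. Single libraries stood apart in their sums: 322 CPM in dark CT17 library 2s against 86.2 to 90.2 CPM in the other CT17 ones, and 985 and 451 CPM in 0.5 h libraries 2 and 2s against 101 and 104 CPM in libraries 1 and 1s. The part of these markers in the members' calls was not tested.

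The 2 members called after 1 h were Lpar6 and Map3k14, both also called for light in the Npas4 experiment. Lpar6 held 2.55, 3.22, 1.84 and 3.01 RPKM in dark CT17 libraries and 4.53 and 3.92 RPKM after 1 h, a log2 fold change of 0.93 ± 0.13 (edgeR, adjusted p = 0.00045). Map3k14 held 1.42, 1.53, 1.34 and 1.59 RPKM against 2.03 and 2.11 RPKM, or 0.56 ± 0.11 (edgeR, adjusted p = 0.010). Both light libraries lay above all 4 dark ones in each case. With batch and suffix together as 3 levels neither was called; adjusted p reached 0.23 for Lpar6 and 0.098 for Map3k14 over the alternatives. Lpar6 was also lost with no batch term, and Map3k14 without the s libraries, dark CT17 library 2 or either 1 h library. The other members called for light in the Npas4 experiment did not pass at 1 h here. Fezf2 held 2.19 to 2.71 RPKM in dark CT17 libraries and 2.04 and 2.45 RPKM after 1 h (log2 0.09 ± 0.17), Zfp703 differed by 0.09 ± 0.13 and A3galt2 by 0.41 ± 0.46. At 6 h Map3k14 was again higher, 1.91 and 1.75 RPKM against 1.31 and 1.04 RPKM at dark CT23 (log2 0.64 ± 0.12, edgeR, adjusted p = 0.011).

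Members of several kinds were called lower after longer light, at 3 h against dark CT17 and at 6 h against dark CT23. Cr2 held 0.379 to 0.425 RPKM in the 4 dark CT17 libraries and 0.166 and 0.165 RPKM after 3 h, a log2 fold change of -1.36 ± 0.28 (edgeR, adjusted p = 0.013). After 6 h it held 0.189 and 0.109 RPKM against 0.405 and 0.521 RPKM at dark CT23, or -1.65 ± 0.30 (edgeR, adjusted p = 0.0085). Ociad2 was called lower at both times, with 12.0 and 10.4 RPKM after 3 h (log2 -0.37 ± 0.09, edgeR, adjusted p = 0.037). After 6 h Ociad2 held 8.82 and 9.13 RPKM against 12.7 and 13.2 RPKM at CT23 (-0.54 ± 0.10, edgeR, adjusted p = 0.012). The Wnt inhibitor Nkd1 held 3.86 and 3.62 RPKM after 6 h against 5.68 and 5.62 RPKM at CT23 (-0.60 ± 0.10, edgeR, adjusted p = 0.0044). Gdf10 at 6 h (-0.53) and Plch2 (-0.47) and Prkag2 (-0.38) at 3 h were the others called lower.

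Prex1 was called higher at both late times. It held 14.2, 14.3, 15.8 and 14.5 RPKM in dark CT17 libraries and 20.3 and 22.7 RPKM after 3 h, a log2 fold change of 0.50 ± 0.09 (edgeR, adjusted p = 0.0066). After 6 h it held 22.2 and 22.8 RPKM against 17.3 and 15.4 RPKM at CT23 (0.45 ± 0.10, edgeR, adjusted p = 0.037). Serpinb11 (log2 1.65) and A3galt2 (1.66) at 3 h and Fam90a1b (0.90) at 6 h, which has near-identical copies, were also called higher, all at low levels.

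These late calls depend on the model and on single libraries. With batch and suffix as 3 levels, 0 members were called at 3 h and 4 at 6 h, the 4 being Cr2, Map3k14, Nkd1 and Ociad2. Over all genes the same model called 0.454% at 3 h and 0.785% at 6 h. With the batch of the labels alone, 17 members were called at 3 h, or 26.6%, and 11.5% of all genes. Without 3 h library 1 or 2 the count at 3 h was 1 or 0, and without dark CT17 library 1, 1s, 2 or 2s it was 3, 3, 4 or 2. Over all genes the main model called 471 at 3 h, and 285, 338, 360 or 368 without dark CT17 library 1, 1s, 2 or 2s. Without 0.5 h library 1s or 2s it called 362 or 372. Calls over all genes also fell at 3 h without a 3 h library, and at 6 h without a CT23 or 6 h library. For the members at 3 h, leaving out 0.5 h library 1s or 2s gave 4 or 3. At 6 h the count was 4 or 2 without CT23 library 1 or 2, and 2 or 3 without 6 h library 1 or 2.

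A1cf, the member with the lowest ratio, was also the member called between the dark times. It held 0.354, 0.503, 0.383 and 0.487 RPKM at CT17 and 0.0838 and 0.102 RPKM at CT23, a log2 fold change of -1.997 ± 0.36 (edgeR, adjusted p = 0.032), and all CT17 libraries lay above both CT23 ones. The background share in that comparison was 0.269%, with 0.165% lower. The call was lost with any dark CT17 or CT23 library left out and without 0.5 h library 1s or 2s (adjusted p up to 0.28 over the alternatives), and the lowest library held 4 reads.

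**Figure D4:**
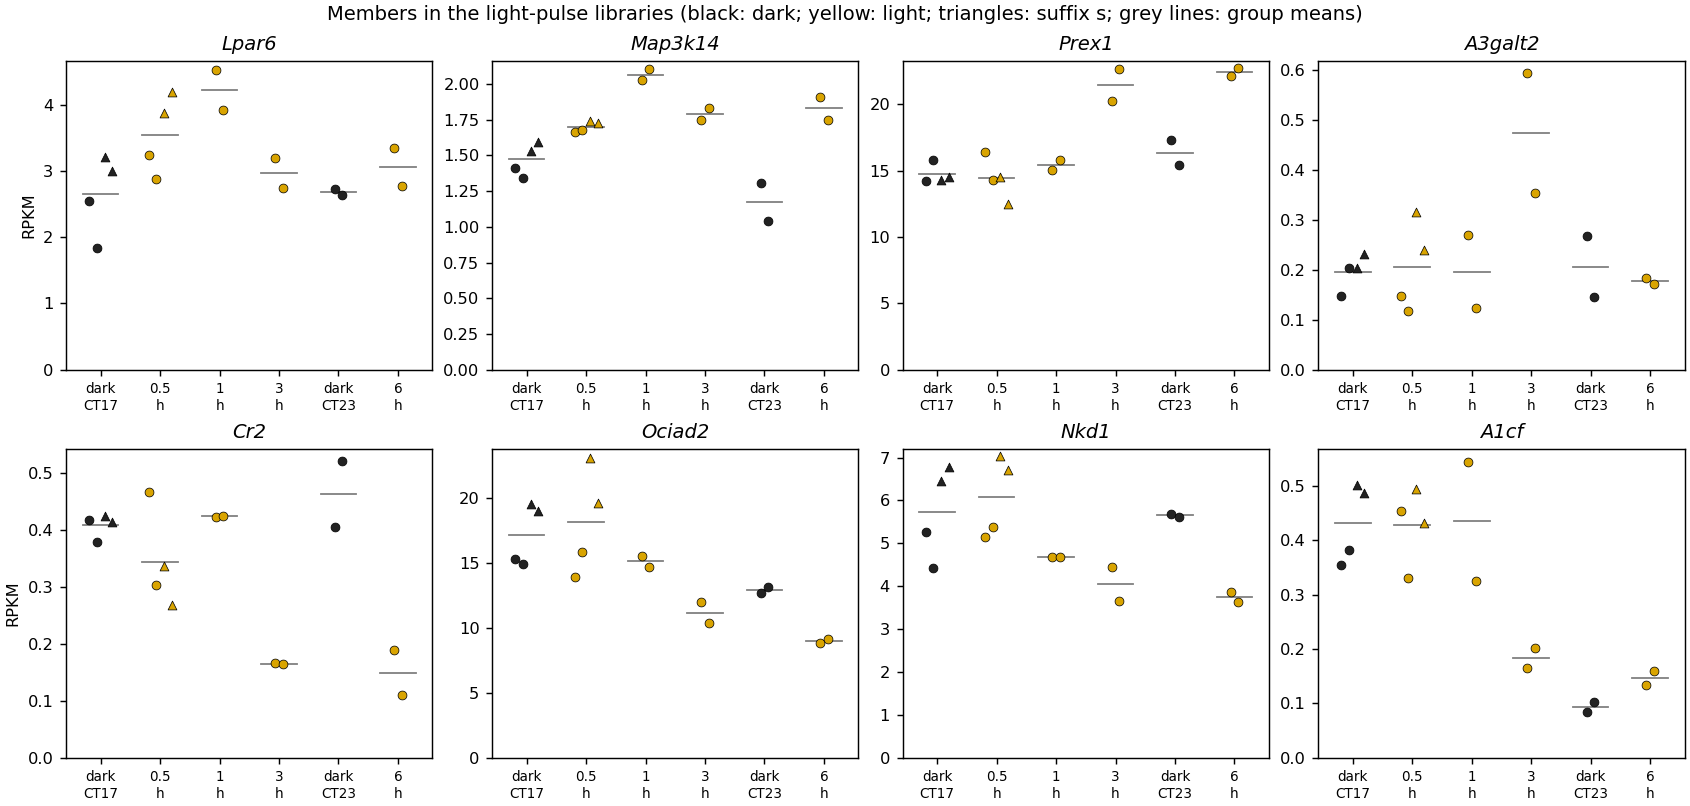
RPKM of 8 members in the 16 light-pulse libraries, on axes that start at 0; black points are dark libraries, yellow points light libraries, triangles libraries with the s suffix and grey lines group means. Lpar6 and Map3k14 are highest after 1 h, and A1cf is low at dark CT23. Prex1 is higher and Cr2 lower after 3 and 6 h than in the dark libraries they are compared with.

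Wild-type dark CT17 libraries exist in both experiments, so the members' levels can be set side by side, although the tables were normalised separately and nothing is tested across them. The rule chose members with high wild-type and low null-labelled dark values, so a share above that of unselected genes follows from the choice, and nothing is read from the shares and counts here. In 22 of the 64 members, or 34.4%, every null-labelled dark library lay below all 4 CT17 libraries of the light-pulse table, against 19.1% of genes at the floor. In 33 members, or 51.6%, every wild-type dark library lay above all 4, against 30.9%. The CT17 mean was nearer to the null-labelled dark mean in 40 members and nearer to the wild-type one in 24. Lrrc10b is an example nearer the null-labelled level, with 3.88, 4.10, 3.81 and 3.54 RPKM at CT17 of the light-pulse table, within the range of the null-labelled libraries. Cr2 is an example nearer the wild-type level, with 0.379 to 0.425 RPKM against 0.333, 0.497 and 0.475 RPKM in wild-type dark libraries.

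Histone marks of active promoters were mapped in wild-type SCN with or without 1 h of light, in 1 library per mark and condition (2 pairs of SCN each), so the counts describe those libraries. Acetylation of histone H3 at lysine 27 (H3K27ac) marks active promoters and enhancers, and trimethylation at lysine 4 (H3K4me3) marks promoters. Within 1 kb of a start, 19 of the 48 members with a start had an H3K27ac peak in darkness, or 39.6% against 71.8% of genes at the floor, and 21 in light, or 43.8% against 70.5%. For H3K4me3 the numbers were 35 in darkness, or 72.9% against 93.2%, and 34 in light, or 70.8% against 92.3%. A peak in every list was found at 18 members, or 37.5% against 65.4%, and in none at 11, or 22.9% against 6.48%. The 11 include all the globin genes of the set, which were the members of highest level. The members' median level was also lower than that of the other genes, as given above, and its part in these shares was not tested.

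The marks differ among the members named here. Map3k14 had H3K27ac peaks of 7.56-fold enrichment in darkness and 10.0-fold in light, and H3K4me3 peaks of 39.5-fold and 31.9-fold; all peak values are the authors'. Lpar6 and Dchs2 also had a peak in every list. Stac, Plch2 and Fezf2 had H3K4me3 peaks and no H3K27ac peak in either condition. A1cf and Lrrc10b had an H3K27ac peak in light but not in darkness, at 4.27-fold (chr19:31867979-31868161) and 3.96-fold (chr19:10456627-10456812). Both lay near the low end of the members' light H3K27ac values, which ran from 3.96-fold to 10.0-fold. No member had an H3K27ac peak in darkness but not in light, and the share of all genes that differ so was not counted. With a -log10 q of at least 5, 16 members had an H3K27ac peak in darkness (33.3% against 66.9% of genes at the floor). Under that limit 13 had one in light (27.1% against 59.6%). Whether A1cf and Lrrc10b were among the 13 was not checked. A1cf lacked an H3K4me3 peak in both conditions.

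**Figure D5:**
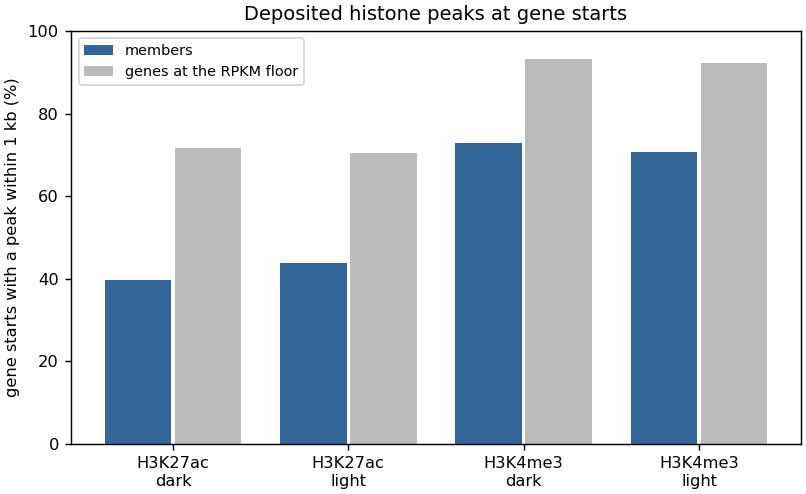
Bars give the percentage of genes with a deposited peak within 1 kb of a start, for the 48 members (blue) and the 10701 genes at the RPKM floor with a start (grey), by mark and lighting condition, 1 library each. Members are below the other genes in each list, from 39.6% against 71.8% to 72.9% against 93.2%.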

How the data were processed

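The members, gene lists and tests were chosen with earlier results of these data known. Raw read counts by gene, and RPKM of the same libraries, were deposited by the authors, and the RPKM equal the counts divided by gene length and library total (largest relative departure 4.3e-14). Per the submitters' processing notes, STAR, HTSeq 0.9.1, featureCounts 1.6.2, BWA 0.7.16a, MACS2 2.1.1 and build mm10 served the series. The tool behind each file and any use of strand are not stated in the labels used here, so overlapping and near-identical genes are uncertain. The authors deposited 1 peak list per mark and condition, with a linear fold enrichment and a -log10 q-value per peak.

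The rule was applied to the deposited RPKM. Counts were tested with edgeR 4.0.16 (R 4.3.3; TMM scaling, filterByExpr, quasi-likelihood F-test, Benjamini-Hochberg over all genes tested, called at 0.05), 1 model for the 4 groups of the Npas4 experiment and 1 with the title suffix as a term for the 16 light-pulse libraries. The steps were tested on simulated data. Summed marker levels are CPM computed from the counts. Symbols of 63 of 64 members matched RefSeq genes of GRCm38.p6, which gave the coordinates, starts and promoters. Genes named are the 12 of lowest ratio, the 12 of highest wild-type level, every member called for light or time, the 4 nearest each side of the ratio limit, members on a fixed list or on chromosome 19, and called genes of the NPAS4 target and bHLH-PAS lists; other members were named after their values were seen. Alternatives were DESeq2 1.42.0, its size factors within edgeR, no filter, a replicate block, other batch terms, other limits of the rule, other peak settings and each library left out. Single-nucleus samples and ChIP inputs were not used here.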

Additional observations from a re-analysis of the deposited data

Results flagged for a closer look

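Of 32 named members, 64 groups of 4 light-pulse libraries were examined for a library far from the other 3, and 4 groups had one; chance alone gives about 1 in 20. In dark CT17 libraries, Dchs2 was low in library 2 (3.75 RPKM against 6.36 to 6.75 RPKM) and Nat8f6 was high in library 2s (0.568 RPKM against 0.474 to 0.488 RPKM). After 0.5 h of light, Serpinb11 was low in library 1s (0.350 RPKM against 0.623 to 0.676 RPKM) and Fam90a1b was high in library 2 (1.96 RPKM against 1.21 to 1.31 RPKM). None of these genes was called at 0.5 h.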

How the results depend on the processing

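Each count is a number of members unless stated otherwise. The rule gave 29 genes at a ratio limit of 0.7, 173 at 0.9, 52 at a floor of 1 RPKM, 54 with TMM-scaled values and 63 to 78 with 1 library left out. For light averaged over genotypes, the replicate block gave 8 in place of 5 while the count over all 15001 genes went from 580 to 1239, and leaving out 1 library gave 4 to 6 members. Same-numbered Npas4 libraries correlated over 0.1 in 17 of 18 pairs (lowest 0.0394, median 0.404), against a median of -0.187 and a highest value of 0.176 over 36 pairs of different numbers. A library correlated best with its own number in 35 of 36 comparisons with another group, a hint from the data and not from the design, so the number was not taken as a pairing. In the light-pulse experiment DESeq2 gave 1 at 0.5 h, 11 at 6 h and 0 for CT23 against CT17. The replicate block with the suffix term gave 1 at 0.5 h and 12 at 6 h. The batch of the labels, which called 1664 of all genes at 3 h in place of 471, gave 4 at 1 h, 17 at 3 h and 2 for CT23 against CT17, and batch with suffix as 3 levels gave 0, 0 and 0 there and 4 at 6 h. Chosen after the data were seen, a model with no batch term gave 1 at 1 h and 2 at 6 h. Leaving out the s libraries, likewise chosen later, gave 1 at 1 h, 2 at 3 h, 3 at 6 h and 0 for CT23 against CT17. With 1 library left out the counts were 0 at 0.5 h, 1 to 2 at 1 h, 0 to 8 at 3 h, 2 to 10 at 6 h and 0 to 1 for CT23 against CT17. Null-labelled against wild type called 113 genes of all tested in darkness and 70 in light; DESeq2 called 258 and 158, the replicate block 463 and 227, and single omissions 48 to 104 and 32 to 81. A peak over the start itself was found at 7 members for H3K27ac in darkness and 4 in light. A -log10 q of at least 5 gave 16 in darkness and 13 in light. The H3K4me3 counts stayed within 1.5 times. Of 487 alternative values for the 22 member calls, 358 stayed past the threshold, 129 did not and 0 reversed; causes were not tested. For 16 members of lowest ratio or highest level other than the globins, the 208 alternative ratios stayed within 1 SD of the wild-type libraries. Leaving out 1 of 6 libraries moves their mean by only part of their SD, so this was nearly fixed in advance. Nothing is read from it, and with the globins all 260 ratios met the same limit. For the globins, whose SD wild-type dark library 1 sets, the ratio over both conditions went from 0.3325 to 0.6012 for Hba-a2, 0.3352 to 0.5978 for Hba-a1, 0.3825 to 0.6765 for Hbb-bs and 0.4012 to 0.7087 for Hbb-bt without that library. The lone sample left when 1 of 2 libraries is omitted is assumed to vary like the other groups. Depth limits the 12 members with fewer than 50 reads in some Npas4 library, and most light-pulse libraries were shallower.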
